A study of Homo sapiens with 16 samples.

Results

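The autophagy core and lysosomal genes described here are the genes of the deposited expression table whose symbol begins with ATG and a digit, with GABARAP, with MAP1LC3 or with ATP6V, or is LAMP1, LAMP2 or LAMP3 or CTS followed by 1 letter. The rule took names only and no measured value. It found 65 of 24107 entries. ATP6V1G3 carried no values, so 64 genes had values of the 17552 that did in the whole table. Of these 64, 53 had a mean of at least 1 FPKM (fragments per kilobase of transcript, scaled to library size) over all libraries and were tested among 11260 genes. These 53 are 17 ATG genes, 6 LC3 and GABARAP genes, 2 LAMP genes, 10 cathepsins, 8 subunits of the V0 part and 10 of the V1 part of the V-ATPase. The 11 below that level, with values but no test, are ATG9B, ATP6V0A4, ATP6V1B1, ATP6V1C2, CTSE, CTSF, CTSG, CTSO, CTSW, LAMP3 and MAP1LC3A.

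RNA was sequenced from HT-1080, an established human fibrosarcoma line, in 8 groups of 2 libraries each. All groups derive from this line, and erastin, which blocks cystine uptake through system xc- and triggers ferroptosis, was given at 10 µM for 24 h. The groups were cells labelled siDCAF8+siLSH with erastin (siDCAF8+siLSH/Erastin) and without it (siDCAF8+siLSH), cells overexpressing WDR76 with erastin (oeWDR76/Erastin) and without it (oeWDR76), cells with DCAF8 depleted by siRNA with erastin (siDCAF8/Erastin) and without it (siDCAF8), and cells with the control siRNA with erastin (siNS/Erastin) and without it (siNS). DCAF8 selects substrates for CRL4 ubiquitin ligases, and HELLS encodes the chromatin remodeler LSH. WDR76 cells have no empty-vector library of their own and were set against siNS. How many siRNAs were used against each target is not given here. Nothing states that libraries within a group are separate cultures, so p-values measure only the spread between these libraries.

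Autophagy encloses cytoplasm in a double membrane and delivers it to the lysosome. ATG13 and ATG101 belong to the initiating kinase complex, ATG14 to the lipid kinase complex, ATG9A and the ATG2 proteins supply membrane and lipid, and ATG3, ATG5, ATG7, ATG10, ATG12 and ATG16L1 attach LC3 and GABARAP proteins to the membrane. In the lysosome, cathepsins digest the cargo, LAMP1 and LAMP2 line the limiting membrane, and the V-ATPase, with a V0 part in the membrane and a V1 part that hydrolyses ATP, pumps in the protons that cathepsins need. Autophagy that degrades ferritin supplies iron for ferroptosis, and genes of this machinery are known targets of the transcription factors TFEB and TFE3, which bind E-box sequences.

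The targeted genes were as follows. DCAF8 was at 14.6 to 17.1 FPKM in siDCAF8+siLSH/Erastin and 14.3 to 17.4 in siDCAF8+siLSH, at 10.3 to 10.8 in siDCAF8/Erastin and 11.8 to 12.2 in siDCAF8, and at 36.7 in both siNS/Erastin libraries and 38.9 to 40.4 in siNS. HELLS was at 2.12 to 2.36 FPKM in siDCAF8+siLSH/Erastin and 4.05 to 4.07 in siDCAF8+siLSH, against 5.85 to 5.89 in siDCAF8/Erastin, 6.83 to 7.45 in siDCAF8, 3.37 to 3.60 in siNS/Erastin and 3.98 to 4.05 in siNS. Without erastin, HELLS in cells labelled siDCAF8+siLSH was therefore below siDCAF8 but not below siNS (log2 difference from siNS 0.01, adjusted p = 0.884, limma), and DCAF8 was less depleted than in siDCAF8. WDR76 was at 241.7 to 323.7 FPKM in oeWDR76/Erastin and 267.1 to 267.8 in oeWDR76, against 2.92 to 3.68 in siNS/Erastin and 2.89 to 3.52 in siNS. HELLS was at 10.8 to 11.0 FPKM in oeWDR76/Erastin and 10.5 to 11.2 in oeWDR76, above siNS by 1.40 and 1.24 log2. DCAF8 was at 31.1 to 31.2 FPKM in oeWDR76/Erastin and 30.9 to 32.8 in oeWDR76, below siNS by 0.23 and 0.31 log2 (adjusted p = 0.0176 and 0.00265, limma). VIM stood at 1273 to 2067 FPKM in every library, while the fibroblast collagen COL1A1 reached 1.45 and the fibroblast gene DCN 0.18. The epithelial genes EPCAM, CDH1 and KRT19 reached 0.20, 0.51 and 0.55. The epithelial keratins KRT8 and KRT18 went the other way, at 103.9 to 226 and 82.1 to 176.2 FPKM over the libraries. Levels in the oeWDR76 groups increased with GC content relative to each gene's mean, with a slope of 0.185 to 0.232 log2 for every 10% of GC, against -0.164 to 0.032 in the other libraries.

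The promoters of the genes that lead the results differ in the E-box. Promoters of 250 bases before to 50 after the start, from RefSeq on GRCh38.p14, were found for 48 of the 64 members and for 27305 genes in all. The E-box CACGTG, which reads the same on both strands, was in 10 of these 48 (20.8%) and in 7.43% of all promoters, and among tested genes in 9 of 41 members (21.95%) and 10.4% of all. Its 10 members were ATG14, ATG3, ATP6V0B, ATP6V0D1, ATP6V0E2, ATP6V1G1, CTSA, CTSD, CTSF and LAMP1. The CLEAR palindrome, the E-box with GT before it and AC after it, was in the promoter of ATP6V1G1 alone among members, and in 0.38% of all promoters. TGACNNNGC, the core of the antioxidant response element, was in 15 members (31.2%) and 13.6% of all, and TGTTTAC, a FOXO motif, in 3 members (6.25%) and 3.41% of all, both counted on both strands. A match is a description, not a bound site or a cause, and the lack of one says only that these letters are not in this window. Printed are 5 of the 6 promoters with an E-box among the genes that erastin lowered in siDCAF8 cells (ATP6V0E2 is the other), in capitals where the E-box stands, and 2 without one, GABARAPL1 and ATP6V0C, each 5′ to 3′ on the gene's strand.
LAMP1, chr13:113296989-113297288, plus strand: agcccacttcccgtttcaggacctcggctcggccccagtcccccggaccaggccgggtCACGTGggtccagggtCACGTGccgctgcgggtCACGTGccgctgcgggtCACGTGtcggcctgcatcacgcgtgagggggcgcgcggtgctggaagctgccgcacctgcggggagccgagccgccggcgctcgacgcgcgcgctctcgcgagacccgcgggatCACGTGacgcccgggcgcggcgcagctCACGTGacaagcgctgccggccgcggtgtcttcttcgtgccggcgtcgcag
CTSA, chr20:45891085-45891384, plus strand: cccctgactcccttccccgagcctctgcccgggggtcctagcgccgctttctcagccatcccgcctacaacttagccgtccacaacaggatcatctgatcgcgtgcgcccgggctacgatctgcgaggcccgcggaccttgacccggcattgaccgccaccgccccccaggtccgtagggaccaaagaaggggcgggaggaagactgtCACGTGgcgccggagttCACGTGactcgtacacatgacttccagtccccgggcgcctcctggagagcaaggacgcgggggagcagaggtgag
CTSD, chr11:1763878-1764177, minus strand: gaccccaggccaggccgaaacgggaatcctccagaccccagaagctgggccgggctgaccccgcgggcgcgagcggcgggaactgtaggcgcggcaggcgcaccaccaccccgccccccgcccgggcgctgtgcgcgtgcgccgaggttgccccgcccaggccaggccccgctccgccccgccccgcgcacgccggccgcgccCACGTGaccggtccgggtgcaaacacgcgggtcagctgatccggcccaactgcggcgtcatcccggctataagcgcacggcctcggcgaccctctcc
ATP6V0B, chr1:43974710-43975009, plus strand: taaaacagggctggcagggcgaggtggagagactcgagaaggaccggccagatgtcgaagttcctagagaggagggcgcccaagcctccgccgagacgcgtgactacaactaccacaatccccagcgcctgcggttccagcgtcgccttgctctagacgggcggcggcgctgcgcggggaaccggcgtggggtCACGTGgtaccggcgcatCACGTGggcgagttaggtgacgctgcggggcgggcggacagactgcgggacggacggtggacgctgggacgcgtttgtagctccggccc
ATP6V0D1, chr16:67481108-67481407, minus strand: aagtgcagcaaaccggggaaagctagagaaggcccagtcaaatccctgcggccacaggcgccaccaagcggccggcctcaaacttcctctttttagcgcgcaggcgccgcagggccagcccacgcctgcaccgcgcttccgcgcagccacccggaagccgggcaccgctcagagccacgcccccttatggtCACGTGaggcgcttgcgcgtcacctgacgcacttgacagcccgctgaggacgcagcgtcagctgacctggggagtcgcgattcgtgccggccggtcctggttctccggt
ATP6V0C, chr16:2513476-2513775, plus strand: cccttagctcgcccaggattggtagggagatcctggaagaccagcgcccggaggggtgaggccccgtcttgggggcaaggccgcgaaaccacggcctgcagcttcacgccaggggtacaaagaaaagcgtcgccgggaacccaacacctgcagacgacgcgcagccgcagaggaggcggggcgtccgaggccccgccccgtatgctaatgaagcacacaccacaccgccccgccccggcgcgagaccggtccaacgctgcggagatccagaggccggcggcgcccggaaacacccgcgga
GABARAPL1, chr12:10212627-10212926, plus strand: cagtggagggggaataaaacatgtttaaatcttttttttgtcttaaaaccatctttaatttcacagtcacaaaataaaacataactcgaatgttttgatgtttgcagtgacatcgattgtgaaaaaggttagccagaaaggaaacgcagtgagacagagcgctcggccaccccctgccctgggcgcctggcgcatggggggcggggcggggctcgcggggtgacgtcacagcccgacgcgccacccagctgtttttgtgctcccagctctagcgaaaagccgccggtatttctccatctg

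All log2 differences below are of log2(FPKM + 1), tested with limma over all 11260 genes, and "rose", "fell", "higher" and "lower" of a member are used with an adjusted p under 0.05. The number after ± is SE. Erastin called 0 to 16 members in a genotype. In bulk RNA, fewer cells of a type and less RNA per cell cannot be told apart. In siDCAF8+siLSH cells, 8 of 53 members rose and 0 fell with erastin, while 20.2% of all genes were called, 10.6% higher and 9.54% lower, and the median log2 difference was 0.074 in members and 0.014 in all genes. In oeWDR76 cells limma called 0 members and 1.45% of all genes (0.471% higher, 0.977% lower), with 6 of 53 members and 1527 of all genes at an unadjusted p under 0.05. In siDCAF8 cells 5 rose and 11 fell, against 18.3% of all genes higher and 22.5% lower (40.9% called), with a median of 0.026 in members and -0.018 in all genes. In siNS cells 5 rose and 6 fell, against 15.1% of all genes higher and 22.4% lower (37.5% called), with a median of -0.015 in members and -0.031 in all genes. The share called was thus below that of all genes in each genotype. The split depended on the scaling: it was 8 higher and 11 lower in siDCAF8 cells and 7 and 5 in siNS cells with median-ratio scaling, 10 and 12 and 9 and 4 with quantile normalization, and 7 and 7 and 8 and 4 with a correction for GC content and length. Without siDCAF8 replicate 1, 9 members were called in siDCAF8 cells; without siNS replicate 1 or without siNS/Erastin replicate 2, 7 in siNS cells; and without siDCAF8+siLSH/Erastin replicate 2, 5 in siDCAF8+siLSH cells.

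**Figure D1:**
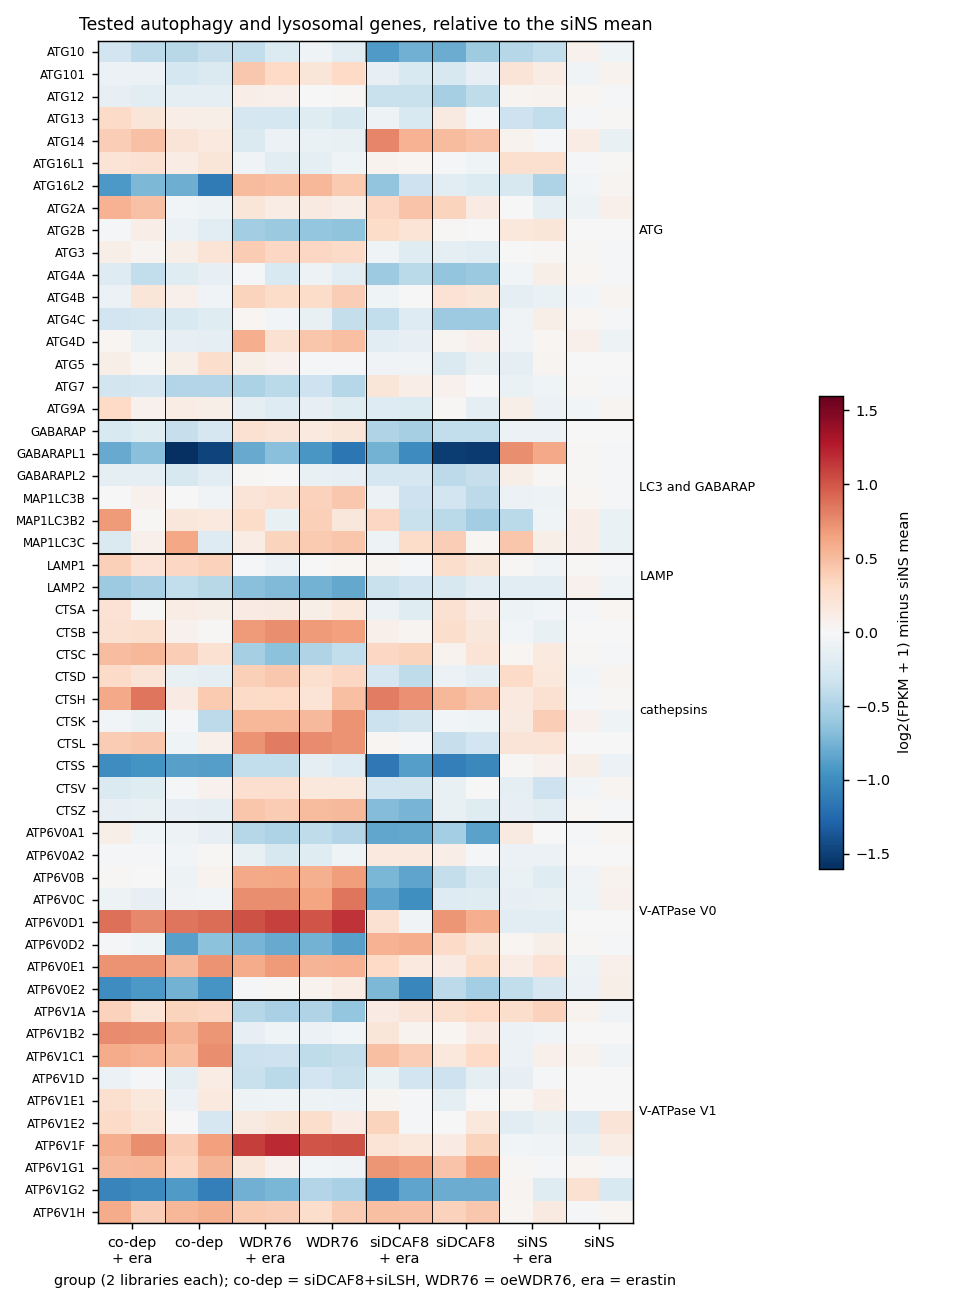
The 53 tested members (rows, grouped by role) in each library (columns, co-dep = siDCAF8+siLSH, WDR76 = oeWDR76, era = erastin), as log2(FPKM + 1) minus the siNS mean, in color. GABARAPL1 is below the siNS mean in every library of the other 3 genotypes, and LAMP2 is lowest in the oeWDR76 columns.

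Between genotypes, 27 to 38 of the 53 members were called. In siDCAF8+siLSH against siNS, 20 were higher and 14 lower with erastin, where 66% of all genes were called (39.3% higher, 26.7% lower), and 14 higher and 15 lower without it, where 66.8% were called (35.9% higher, 30.9% lower). In oeWDR76 against siNS, 21 were higher and 13 lower with erastin, where 76.2% of all genes were called (45.2% higher, 31% lower), and 19 higher and 14 lower without it, where 73.6% were called (41.6% higher, 32% lower). In siDCAF8 against siNS, 15 were higher and 23 lower with erastin, where 64.8% of all genes were called (34.8% higher, 30% lower), and 15 higher and 20 lower without it, where 61% were called (31% higher, 29.9% lower). In siDCAF8+siLSH against siDCAF8, 22 were higher and 6 lower with erastin, where 49.7% of all genes were called (30.4% higher, 19.3% lower), and 19 higher and 8 lower without it, where 48.2% were called (26.4% higher, 21.7% lower). Without siDCAF8+siLSH replicate 2 the count without erastin was 17. The share of members called was above that of all genes in siDCAF8 against siNS and in siDCAF8+siLSH against siDCAF8, and below it in the other comparisons. Median log2 differences over members, with and without erastin, were 0.059 and -0.015 in siDCAF8+siLSH against siNS (0.071 and 0.029 over all genes), 0.118 and 0.017 in oeWDR76 (0.109 and 0.07), and -0.125 and -0.06 in siDCAF8 (0.03 and 0.009). For siDCAF8+siLSH against siDCAF8 they were 0.148 and 0.091 (0.056 and 0.027 over all genes). The all-gene shift of 0.109 in oeWDR76 with erastin was 0.009 with median-ratio scaling, and the oeWDR76 split was 16 and 20 with erastin and 18 and 18 without it under that scaling, 13 and 19 and 16 and 20 under quantile normalization, and 15 and 19 and 12 and 18 with the GC and length correction. Higher in all 6 comparisons with siNS were ATP6V0D1, ATP6V1F and ATP6V1H, and lower in all 6 were GABARAPL1, LAMP2 and ATP6V1G2. Without siNS replicate 1, ATP6V1G2 was not called in oeWDR76 without erastin (log2 difference -0.25, adjusted p = 0.121). These 6 comparisons share the siNS libraries of each treatment, and how many of all genes kept the same direction in all 6 is not given here.

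GABARAPL1, a GABARAP-type protein that is lipidated like LC3, had the largest log2 difference of any tested member in any comparison, 1.57 lower in siDCAF8+siLSH than in siNS. It was at 12.3 and 13.6 FPKM in siDCAF8+siLSH/Erastin, against 6.39 and 7.33 FPKM in siDCAF8+siLSH. It was at 12.3 and 13.6 FPKM in oeWDR76/Erastin, against 11.2 and 9.47 FPKM in oeWDR76, and at 12.8 and 10.6 FPKM in siDCAF8/Erastin, against 7.10 and 7.08 FPKM in siDCAF8. It was at 38.1 and 34.3 FPKM in siNS/Erastin, against 22.6 and 21.96 FPKM in siNS. In each genotype the erastin libraries lay above those without erastin, and every siNS library lay above every library of the other genotypes. Erastin raised it by 0.83 ± 0.10 in siDCAF8+siLSH (adjusted p = 1.91e-05), 0.64 ± 0.10 in siDCAF8 (adjusted p = 7.81e-05) and 0.67 ± 0.10 in siNS (adjusted p = 4.70e-05). In oeWDR76 the difference was 0.30 ± 0.10 and was not called (adjusted p = 0.149). The responses did not differ past the threshold between genotypes, with differences from the siNS response of 0.15 in siDCAF8+siLSH (adjusted p = 0.427), -0.37 in oeWDR76 (0.0751) and -0.03 in siDCAF8 (0.896). Against siNS it fell by 1.42 with and 1.57 without erastin in siDCAF8+siLSH, by 1.41 and 1.04 in oeWDR76, and by 1.55 and 1.52 in siDCAF8, and each of these calls passed without each single library. An antisense gene, AC115676.1, overlaps it, and whether the strand was used in counting is not stated in the labels.

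The other LC3 and GABARAP genes moved less. GABARAP had the highest mean of the members over the 16 libraries, 159.2 FPKM, with 119 to 205 FPKM per library. In the siDCAF8 and siDCAF8+siLSH libraries, with and without erastin, LAMP1 was above it. GABARAP was at 123.1 and 119.5 FPKM in siDCAF8/Erastin, against 161.6 and 162.6 FPKM in siNS/Erastin, and 131.1 and 131.7 FPKM in siDCAF8, against 174.1 and 171.8 FPKM in siNS. It fell by 0.42 with and 0.39 without erastin in siDCAF8. GABARAPL2 was at 63.6 and 64.2 FPKM in siDCAF8/Erastin, against 82.8 and 78.3 FPKM in siNS/Erastin, and 57.5 and 59.9 FPKM in siDCAF8, against 78.7 and 76.3 FPKM in siNS. The siDCAF8 libraries lay below the siNS libraries for both genes. MAP1LC3B was at 46.9 and 48.4 FPKM in oeWDR76/Erastin, against 37.99 and 38.5 FPKM in siNS/Erastin, and 52.5 and 54.9 FPKM in oeWDR76, against 41.6 and 39.7 FPKM in siNS, and was higher in oeWDR76 both with and without erastin, though not called with erastin under quantile normalization. Its reads may be split with the near-identical MAP1LC3B2, so both are uncertain. With erastin, GABARAP, GABARAPL2, MAP1LC3B, MAP1LC3B2 and MAP1LC3C were not called in any genotype. Under other scalings some were called higher: GABARAPL2 in siDCAF8 under all 3 and in siNS with the GC and length correction, and, with quantile normalization, MAP1LC3B in siDCAF8 and GABARAP in siDCAF8+siLSH.

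The ATG genes changed in single members and in both directions. With erastin, ATG13 of the initiation complex was at 10.3 and 9.82 FPKM in siNS/Erastin, against 13.0 and 13.4 FPKM in siNS, and fell by 0.37 ± 0.07 (adjusted p = 0.000878). ATG10, an enzyme that joins ATG12 to ATG5, was at 2.83 and 2.99 FPKM in siNS/Erastin, against 4.5 and 3.98 FPKM in siNS, and fell by 0.42 (adjusted p = 0.00300), while ATG16L1, the scaffold of that conjugate, was at 18.7 and 18.6 FPKM, against 15.3 and 15.6 FPKM, and rose by 0.26 (adjusted p = 0.00333). In each of these genes the siNS/Erastin and siNS libraries did not overlap. ATG2A, which transfers lipid to the growing membrane, was at 13.2 and 12.4 FPKM in siDCAF8+siLSH/Erastin, against 8.42 and 8.20 FPKM in siDCAF8+siLSH, and rose by 0.57 ± 0.09 (adjusted p = 0.000196). In the other genotypes its erastin difference was 0.04 in oeWDR76, 0.15 in siDCAF8 and -0.08 in siNS, not called. Its response in siDCAF8+siLSH exceeded that in siNS by 0.65 (adjusted p = 0.00123) and that in siDCAF8 by 0.42 (adjusted p = 0.0213), and the difference from siDCAF8 was 0.08 (adjusted p = 0.715) with the GC and length correction.

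Across genotypes, ATG14, the subunit that brings the lipid kinase complex to autophagy, was at 9.53 and 8.03 FPKM in siDCAF8/Erastin, against 5.38 and 5.01 FPKM in siNS/Erastin, and 7.70 and 7.39 FPKM in siDCAF8, against 5.63 and 4.66 FPKM in siNS. It was higher by 0.66 with erastin (adjusted p = 6.62e-06) and 0.48 without it (adjusted p = 0.000189). ATG16L2, a relative of ATG16L1, was at 10.8 and 12.5 FPKM in siDCAF8+siLSH/Erastin, 12.0 and 9.15 FPKM in siDCAF8+siLSH, 30.7 and 30.1 FPKM in oeWDR76/Erastin and 31.3 and 28.8 FPKM in oeWDR76, against 17.7 and 14.8 FPKM in siNS/Erastin and 20.6 and 21.98 FPKM in siNS. The oeWDR76 libraries lay above all siNS libraries and the siDCAF8+siLSH libraries below them. ATG7, the activating enzyme of both conjugation systems, was at 21.3 and 21.8 FPKM in siDCAF8+siLSH/Erastin, against 30.3 and 28.4 FPKM in siDCAF8/Erastin, and 18.7 and 18.7 FPKM in siDCAF8+siLSH, against 27.8 and 26.4 FPKM in siDCAF8. It was lower by 0.43 with and 0.51 without erastin, with no overlap. In oeWDR76, ATG2B was lower than in siNS by 0.75 with and 0.63 without erastin, and with the GC and length correction by 0.23 and by 0.15, where the second was no longer called (adjusted p = 0.0756).

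LAMP1 and LAMP2 are the main membrane proteins of the lysosome. LAMP2 was at 42.3 and 41.3 FPKM in oeWDR76/Erastin, against 59.6 and 59.8 FPKM in siNS/Erastin, and 39.8 and 38.1 FPKM in oeWDR76, against 71.3 and 64.6 FPKM in siNS. It fell by 0.50 with and 0.79 without erastin (adjusted p = 2.27e-09 without erastin), or by 0.44 without erastin after the GC and length correction. LAMP1 was at 134.1 and 127.0 FPKM in oeWDR76/Erastin, against 138.0 and 130.4 FPKM in siNS/Erastin, and was not called there, but it was called lower under median-ratio scaling, quantile normalization and the GC and length correction, as LAMP2 was. LAMP1 was at 177.7 and 159.9 FPKM in siDCAF8+siLSH/Erastin and 171.2 and 176.0 FPKM in siDCAF8+siLSH, above every siNS library. In siDCAF8 it was lower with erastin, at 139.9 and 133.6 FPKM in siDCAF8/Erastin against 165.5 and 155.2 FPKM in siDCAF8, by 0.23 on the log2 scale. This fall was outside the named results that were checked under other processing.

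With erastin, 4 of 10 cathepsins rose and 0 fell in siDCAF8+siLSH (10.6% of all genes rose and 9.54% fell). In siDCAF8, 1 rose and 4 fell (18.3% and 22.5%), and in siNS 2 rose and 1 fell (15.1% and 22.4%). With median-ratio scaling, 3 rose and 4 fell in siDCAF8. CTSL, a cysteine protease, was the only cathepsin raised by erastin in 3 genotypes. It was at 84.8 and 86.2 FPKM in siDCAF8+siLSH/Erastin, against 60.5 and 67.3 FPKM in siDCAF8+siLSH, at 65.0 and 62.3 FPKM in siDCAF8/Erastin, against 49.1 and 51.3 FPKM in siDCAF8, and at 73.6 and 74.1 FPKM in siNS/Erastin, against 63.6 and 64.0 FPKM in siNS. The rises were 0.42 ± 0.06, 0.34 ± 0.06 and 0.21 ± 0.06 (adjusted p = 0.000101, 0.000263 and 0.00928), and the call in siNS was lost without siNS replicate 1 (adjusted p = 0.0506). CTSD, an aspartic protease, was at 103.5 and 96.5 FPKM in siDCAF8+siLSH/Erastin, against 76.6 and 75.1 FPKM in siDCAF8+siLSH, and at 69.4 and 62.9 FPKM in siDCAF8/Erastin, against 78.5 and 75.7 FPKM in siDCAF8. It was at 103.8 and 94.1 FPKM in siNS/Erastin, against 80.7 and 86.5 FPKM in siNS. CTSD thus rose by 0.39 in siDCAF8+siLSH and 0.24 in siNS and fell by 0.22 in siDCAF8, and the response in siDCAF8 was 0.46 below that in siNS (adjusted p = 0.00228). The fall in siDCAF8 was outside the named results that were checked under other processing, and CTSD has a GC content of 63.4%. The rise in siNS was not called without siNS replicate 1 (adjusted p = 0.0821) or siNS/Erastin replicate 1 (adjusted p = 0.101). CTSZ, a carboxypeptidase, was at 59.6 and 57.6 FPKM in siDCAF8/Erastin, against 89.9 and 84.9 FPKM in siDCAF8, a fall of 0.57 ± 0.05 (adjusted p = 4.44e-07), and the fall was 0.43 after the GC and length correction. CTSA, a serine carboxypeptidase that also protects other lysosomal enzymes, was at 47.5 and 44.4 FPKM in siDCAF8/Erastin, against 60.5 and 55.7 FPKM in siDCAF8, and fell by 0.33. The genes PLTP and NEURL2 lie on the strand opposite CTSA, and a read-through gene shares CTSD's strand. Exons of many other members also overlap those of other genes, and ATP6V0C, GABARAP and ATP6V1G2 are among those with a protein-coding overlap on the same strand.

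Of the 10 tested cathepsins, 6 were higher and 2 lower in oeWDR76/Erastin than in siNS/Erastin (45.2% of all genes were higher and 31% lower). Without erastin, 6 were higher and 1 lower in oeWDR76 than in siNS (41.6% and 32%). With the GC and length correction these counts were 3 and 3, and 4 and 1. CTSB, a cysteine protease, was at 162.9 and 169.8 FPKM in oeWDR76/Erastin, against 97.9 and 93.2 FPKM in siNS/Erastin, and 163.1 and 159.4 FPKM in oeWDR76, against 100.3 and 101.6 FPKM in siNS. CTSL was at 105.6 and 114.2 FPKM in oeWDR76/Erastin, against 73.6 and 74.1 FPKM in siNS/Erastin, and 108.1 and 105.7 FPKM in oeWDR76, against 63.6 and 64.0 FPKM in siNS. Neither pair of groups overlapped: CTSB was higher by 0.79 with and 0.67 without erastin, and CTSL by 0.74 without it, and after the GC and length correction these were 0.63, 0.54 and 0.48. CTSS was at 0.60 and 0.91 FPKM in siDCAF8/Erastin, against 2.59 and 2.72 FPKM in siNS/Erastin, and 0.66 and 0.73 FPKM in siDCAF8, against 2.76 and 2.32 FPKM in siNS, lower by 1.06 in both. CTSW, not tested, was at 0.04 and 0.09 FPKM in siDCAF8+siLSH/Erastin, 0.22 and 0.49 FPKM in oeWDR76/Erastin and 0.36 and 0.53 FPKM in siDCAF8/Erastin, against 2.38 and 2.35 FPKM in siNS/Erastin. CTSS and CTSW are known as proteases of immune cells. Of the 4 blood and endothelial markers, PTPRC was at 0.97 to 2.05 FPKM over the libraries, PECAM1 at 0.70 to 3.16, CDH5 at 0.01 to 1.05 and CD68, a lysosomal protein that HT-1080 libraries all held, at 39.1 to 161.2. Their sum was 49.1 to 51.0 FPKM in siDCAF8+siLSH/Erastin and 41.8 to 44.7 in siDCAF8+siLSH, 160.5 to 161.1 in oeWDR76/Erastin and 156.8 to 164.0 in oeWDR76, and 73.5 to 84.9 in siDCAF8/Erastin and 71.9 to 73.0 in siDCAF8, against 95.7 to 104.4 in siNS/Erastin and 109.6 to 118.7 in siNS. CD68 made up most of each sum. The part of these markers in the CTSS and CTSW values was not tested.

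**Figure D2:**
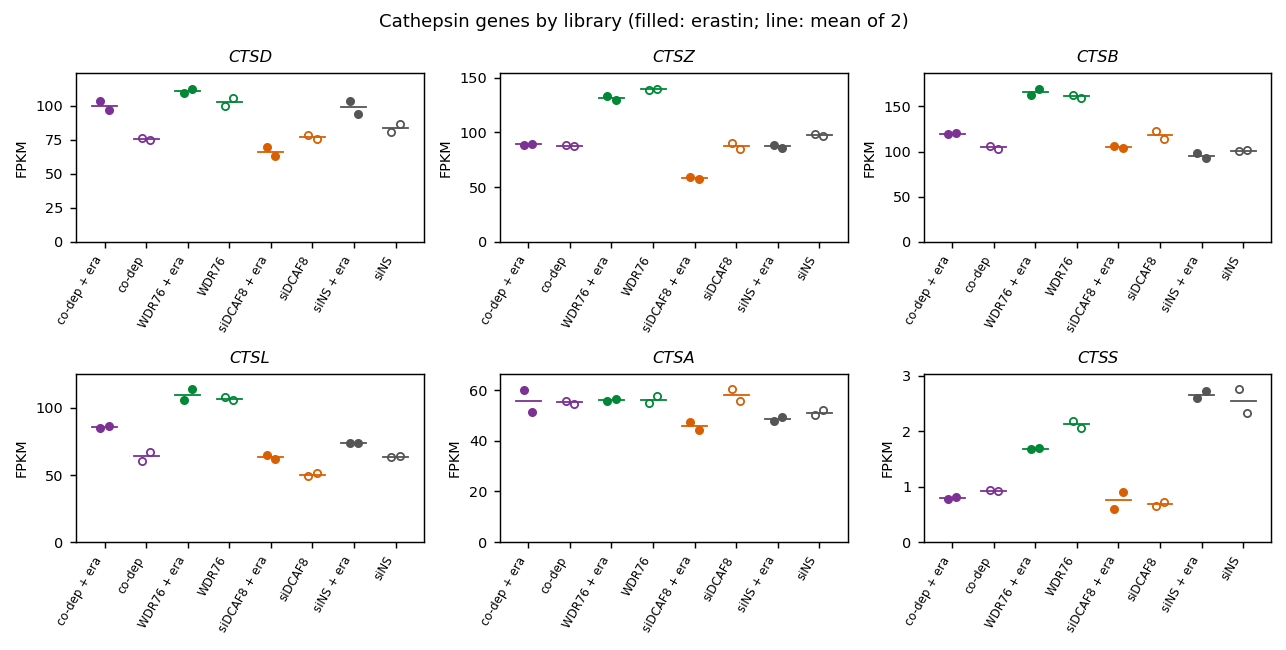
FPKM of the cathepsins by group (one point per library, filled with erastin, line at the mean of 2 libraries). CTSD and CTSZ in siDCAF8/Erastin, at 62.9 to 69.4 and 57.6 to 59.6 FPKM, lie below the other groups, and CTSB in oeWDR76 lies above them.

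When erastin was given to siDCAF8 cells, 4 of the 8 tested V0 subunits of the V-ATPase fell and 1 rose (22.5% of all genes fell and 18.3% rose), while 0 of 10 V1 subunits were called (limma, 1 at an unadjusted p under 0.05). The difference between the V0 and V1 subunits was not tested. Median-ratio scaling left both counts as they were, quantile normalization called 2 V1 subunits higher, and the GC and length correction called 3 V0 subunits lower and 1 higher. ATP6V0C, which forms the proton-carrying ring, was at 59.4 and 54.3 FPKM in siDCAF8/Erastin, against 93.7 and 94.2 FPKM in siDCAF8, and was at 98.7 and 99.5 FPKM in siNS/Erastin, against 103.2 and 112.8 FPKM in siNS. ATP6V0B, another ring subunit, was at 32.9 and 30.2 FPKM in siDCAF8/Erastin, against 42.2 and 46.0 FPKM in siDCAF8, and was at 51.0 and 48.1 FPKM in siNS/Erastin, against 52.9 and 57.5 FPKM in siNS. In both genes the siDCAF8/Erastin libraries were the lowest of all 16. ATP6V0C fell by 0.72 ± 0.07 (adjusted p = 1.0018e-06), ATP6V0D1, which couples the parts, by 0.55 ± 0.08 (adjusted p = 8.96e-05), ATP6V0B by 0.47 ± 0.07 (adjusted p = 5.08e-05) and ATP6V0E2 by 0.40 (adjusted p = 0.0121). After the GC and length correction the first 3 fell by 0.48, 0.43 and 0.33 and ATP6V0E2 was no longer called (adjusted p = 0.159), nor was it without siDCAF8 replicate 1 or siDCAF8/Erastin replicate 2. ATP6V0D2, an alternative to ATP6V0D1, went the other way, at 16.9 and 17.2 FPKM in siDCAF8/Erastin against 14.1 and 13.0 FPKM in siDCAF8, a rise of 0.31 (adjusted p = 0.00357).

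These responses differed between genotypes. The ATP6V0C response in siDCAF8 was 0.60 below that in siNS (adjusted p = 0.000491), and in siDCAF8+siLSH it was 0.66 above that in siDCAF8 (adjusted p = 0.00126), or 0.31 (adjusted p = 0.0660) after the GC and length correction. In siDCAF8+siLSH/Erastin, ATP6V0C was at 102.3 and 98.7 FPKM, against 104.1 and 104.8 FPKM in siDCAF8+siLSH. ATP6V0D2 was at 11.0 and 10.6 FPKM in siDCAF8+siLSH/Erastin, against 5.69 and 6.77 FPKM in siDCAF8+siLSH, and rose there by 0.71 ± 0.08 (adjusted p = 9.80e-06). In siDCAF8 against siNS the erastin response differed in 7 members, all lower, where 20.8% of all genes were called (11% higher, 9.84% lower), and in 4 members without siNS replicate 1. Between siDCAF8+siLSH and siDCAF8 it differed in 11 higher and 1 lower, where 23.5% of all genes were called (14.2% higher, 9.24% lower). These 12 became 3 with the GC and length correction, 6 without siDCAF8 replicate 1 and 7 without siDCAF8+siLSH/Erastin replicate 1. Set against siNS, siDCAF8+siLSH differed in 8 higher and 1 lower, where 24.8% of all genes were called (15.6% higher, 9.13% lower), and in 5 without siDCAF8+siLSH/Erastin replicate 2. In oeWDR76 against siNS it differed in 2 members, both higher, where 14.1% of all genes were called (9.04% higher, 5.11% lower), but with median-ratio scaling in 1 higher and 2 lower and with quantile normalization in 0 higher and 3 lower. Of the 11 members that erastin lowered in siDCAF8, 10 had a promoter entry and 6 of these held the E-box, as printed for LAMP1, CTSA, CTSD, ATP6V0B and ATP6V0D1 and found in ATP6V0E2, against 0 of 4 members that rose and 3 of 27 not called. The pattern was not particular to the E-box. LAMP1, CTSA, CTSD, ATP6V0B and ATP6V0D1 also hold the antioxidant response core TGACNNNGC, as does CTSZ, which fell too. That motif was not counted by call. Over all genes the E-box was in 11.2% of promoters of genes that fell, 10.6% of those that rose and 10.1% of those not called, and ATP6V0C, which fell most, holds none in this window. The E-box counts rest on calls without the GC and length correction, under which ATP6V0E2 was not called (adjusted p = 0.159, limma). The 6 E-box members that fell have a GC content of 55.2 to 63.4%, against a median of 49.8% over all tested genes. The part of GC content in this split was not tested.

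**Figure D3:**
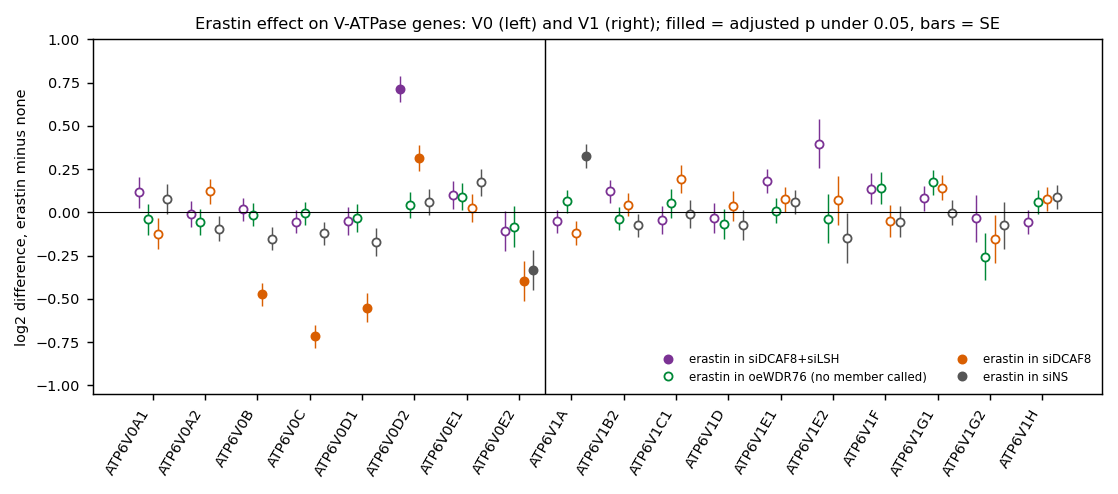
Log2 difference with erastin (vertical axis) for each tested V-ATPase subunit (horizontal axis) in each genotype (bars are SE, filled points adjusted p under 0.05). In siDCAF8, ATP6V0C, ATP6V0D1 and ATP6V0B lie at -0.72, -0.55 and -0.47, and none of the V1 subunits is filled.

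Between genotypes, subunits of both parts differed in opposite directions. In oeWDR76, ATP6V0C was at 181.0 and 181.4 FPKM in oeWDR76/Erastin, against 98.7 and 99.5 FPKM in siNS/Erastin, and 168.1 and 196.6 FPKM in oeWDR76, against 103.2 and 112.8 FPKM in siNS. It was higher by 0.86 with and 0.75 without erastin, but after the GC and length correction the difference was 0.15 with and 0.14 without erastin (adjusted p = 0.0369 and 0.0517). ATP6V0D1 was at 31.3 and 33.0 FPKM in oeWDR76/Erastin and 28.5 and 26.3 FPKM in siDCAF8+siLSH/Erastin, against 13.2 and 13.2 FPKM in siNS/Erastin. It was also at 31.3 and 34.6 FPKM in oeWDR76 and 27.9 and 28.9 FPKM in siDCAF8+siLSH, against 14.9 and 15.1 FPKM in siNS. In oeWDR76 it was higher by 1.22 with and 1.08 without erastin (0.78 and 0.72 corrected), and in siDCAF8+siLSH by 0.997 and 0.876. ATP6V1F, a small V1 subunit of the central stalk, was at 119.9 and 127.0 FPKM in oeWDR76/Erastin, against 53.3 and 52.8 FPKM in siNS/Erastin, higher by 1.20 (0.53 corrected). ATP6V1A, the catalytic subunit, was lower, at 17.8 and 17.0 FPKM in oeWDR76/Erastin against 30.4 and 32.1 FPKM in siNS/Erastin, by 0.81 on the log2 scale. ATP6V1B2, its partner in the catalytic head, was at 47.1 and 46.8 FPKM in siDCAF8+siLSH/Erastin, against 25.9 and 26.5 FPKM in siNS/Erastin, higher by 0.82. ATP6V0A1, the V0 subunit through which protons reach and leave the ring, was at 5.88 and 5.95 FPKM in siDCAF8/Erastin, against 12.6 and 11.3 FPKM in siNS/Erastin, lower by 0.90, and it was at 12.1 and 10.7 FPKM in siDCAF8+siLSH/Erastin. Of the 8 V0 subunits 5 were higher and 2 lower in oeWDR76 with erastin (3 and 2 corrected). Of the 10 V1 subunits 2 were higher and 4 lower (also 2 and 4 corrected). In that comparison 45.2% of all genes were higher and 31% lower.

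**Figure D4:**
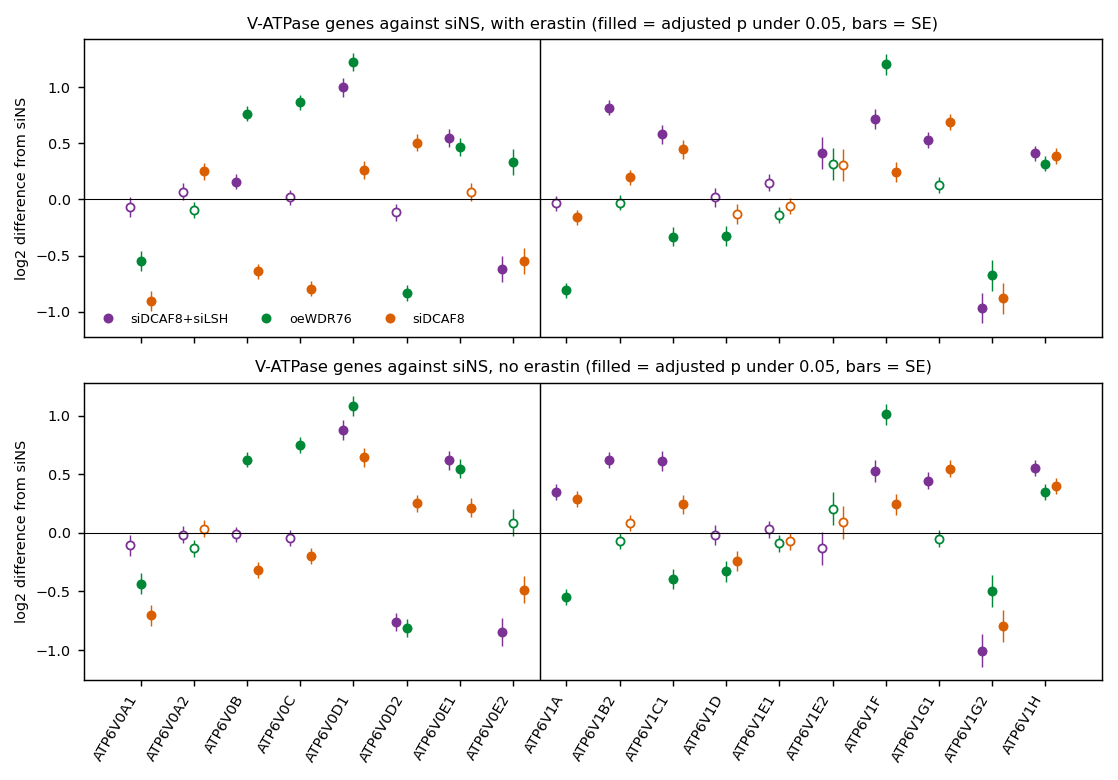
Log2 difference from siNS (vertical axis) for each tested V-ATPase subunit (horizontal axis) in each genotype, with and without erastin (bars are SE, filled points adjusted p under 0.05). ATP6V0D1 lies above 0 in all comparisons, up to 1.22 in oeWDR76 with erastin. ATP6V0C lies at 0.86 and 0.75 in oeWDR76, before the GC and length correction that brings it to 0.15 and 0.14.

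Other genes of the pathway, 106 tested genes in 6 lists (receptors, initiation, fusion, hydrolases, lysosomal membrane, regulators), followed erastin in each genotype as follows: 33 rose and 0 fell in siDCAF8+siLSH (10.6% of all genes rose and 9.54% fell), 1 rose and 0 fell in oeWDR76 (0.471% and 0.977%), 27 rose and 15 fell in siDCAF8 (18.3% and 22.5%), and 18 rose and 15 fell in siNS (15.1% and 22.4%). In siNS, 21 rose and 9 fell under median-ratio scaling, 22 rose and 12 fell after quantile normalization, and 27 rose and 9 fell with the GC and length correction. In siDCAF8 the correction gave 30 rises and 9 falls. The 0 falls in siDCAF8+siLSH did not hold under this correction, where 1 hydrolase fell, as given below. The receptor SQSTM1, which links cargo to LC3 and is also a target of the oxidative stress factor NRF2, averaged 395.3 FPKM in siDCAF8+siLSH/Erastin, against 192.0 in siDCAF8+siLSH, and rose by 1.04 (adjusted p = 2.33e-07). It averaged 282.1 FPKM in siDCAF8/Erastin, against 170.9 in siDCAF8 (0.71, adjusted p = 2.74e-06), and 481.5 FPKM in siNS/Erastin, against 195.0 in siNS (1.30, adjusted p = 8.47e-09). In oeWDR76 it did not pass (0.21, adjusted p = 0.197). EPG5, which tethers autophagosomes to lysosomes, rose by 0.84 in siDCAF8 and 0.71 in siNS. Of 26 hydrolases outside the cathepsins, 9 rose and 0 fell in siDCAF8+siLSH, and 3 rose and 6 fell in siDCAF8, with MAN2B1, ARSB and SMPD1 among those that fell, and with the GC and length correction 5 rose and 1 fell in siDCAF8+siLSH, and 3 rose and 3 fell in siDCAF8. The response was higher in siDCAF8+siLSH than in siDCAF8 for 10 of the 26, where 14.2% of all genes were called higher, but for 0 of 26 with the GC and length correction.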

How the data were processed

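RNA of 16 HT-1080 libraries was sequenced in 8 groups of 2. Per the labels' protocols, Trizol was used for extraction, Smart-seq v4 for cDNA amplification, NEBNext Ultra DNA for the libraries and BGISEQ500 for sequencing. The authors deposited FPKM per gene, rounded to 2 decimals, and per the submitters' processing notes the tool was StringTie and the build GRCh38. The aligner, the annotation release and any strand setting are not stated. The steps between low values gave an estimated 17700000 to 18400000 fragments per library, with 84.6 to 96.3% of low values within 0.15 of a whole fragment number. FPKM divides by transcript length and by a library total, so a few abundant genes can shift all others.

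Values were tested as log2(FPKM + 1) with limma 3.58.1 in R 4.3.3 over 11260 genes of mean FPKM at least 1, with 8 group means, a mean-variance trend, and Benjamini-Hochberg adjustment within each of 16 contrasts; all tests were two-sided and an adjusted p under 0.05 was called. The fit was tested on simulated data. Python 3.11.15, pandas 2.3.3, numpy 2.4.6 and matplotlib 3.10.9 made tables and plots. Members and lists were chosen with earlier results of these data known. Named with tests were in each comparison at most 6 rises and 6 falls, the largest among called members without overlap, at most 6 per direction in each response difference, and the 3 called genes of lowest p in each other list. Any member could be given with its values. Some called members outside this choice were also given with their log2 differences, such as CTSD, LAMP1 and GABARAP in siDCAF8. Those are not among the named results counted below. Alternatives were a pseudocount of 0.1, no filter, a filter of 5 FPKM, median-ratio scaling, quantile normalization, a replicate block, a correction for GC content and length, a fit restricted to the compared groups, and each library left out in turn.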

Additional observations from a re-analysis of the deposited data

Results flagged for a closer look

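The results below are those in which the response to erastin differed between genotypes by a test of the difference itself (an interaction contrast in limma, as differences of log2(FPKM + 1) changes). None of them was weighed for a cause, and levels also moved with GC content, with slopes of 0.185 to 0.232 log2 for every 10% of GC in the oeWDR76 libraries with and without erastin, -0.14 and -0.139 in siDCAF8/Erastin, -0.164 and -0.115 in siDCAF8+siLSH, and -0.094 to 0.032 in the others. Its part was not tested beyond the correction given.

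In siDCAF8 against siNS, 7 members were called. The siDCAF8 response minus the siNS response, on the log2 scale, was as follows: ATP6V0C -0.60 (adjusted p = 0.000491), CTSK -0.54 (0.0429), CTSD -0.46 (0.00228), ATP6V1A -0.44 (0.00434), CTSZ -0.41 (0.000715) and ATP6V0D1 -0.38 (0.0294). CTSK, an osteoclast-type collagenase cathepsin, lost its call when 1 of 9 libraries was left out, for each of the 9 (adjusted p 0.0532 to 0.146), and ATP6V0D1 for each of 6 (0.0547 to 0.14).

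In oeWDR76 against siNS, 2 members were called, ATG13 with 0.32 (adjusted p = 0.0478) and LAMP2 with 0.28 (0.0286). Left out one at a time, 10 libraries each ended the call of ATG13 (adjusted p 0.0508 to 0.152) and 6 that of LAMP2 (0.0588 to 0.132).

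In siDCAF8+siLSH against siNS, 9 members were called. ATP6V0D2 and ATG2A differed by 0.65 each, ATG13 by 0.52, ATG16L2 by 0.51, ATG10 by 0.46 and ATG7 by 0.28, all higher, and ATP6V1A by -0.38. The calls of ATG16L2, ATG10 and ATG7 each ended when any 1 of 4 libraries was left out, and that of ATP6V1A for either of 2 (adjusted p 0.0514 and 0.052).

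In siDCAF8+siLSH against siDCAF8, 12 members were called. ATP6V0C differed by 0.66, CTSD by 0.61, CTSZ by 0.59, ATP6V0D1 by 0.50, ATP6V0B by 0.49 and ATG2A by 0.42, all higher, and ATG4C, a protease that trims LC3, by -0.35. With the GC and length correction, the differences of ATP6V0C, ATP6V0D1, ATP6V0B, ATG2A and ATG4C were no longer called (adjusted p 0.0660, 0.124, 0.112, 0.715 and 0.903). Left out one at a time, 11 libraries each ended the call of ATG4C (adjusted p 0.0566 to 0.175) and 4 that of ATG2A (0.0678 to 0.116).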

How the results depend on the processing

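Of 146 named results, 112 kept their call under every alternative, and 0 of 3475 recomputed values reversed direction. Because named results were picked as the largest called differences in these same libraries, a reversal was unlikely from the start. The 0 is therefore no measure of how well they would hold in other libraries. Most counts of called members stayed within 1.5 times. The exceptions outside leave-one-out were the response differences of oeWDR76 against siNS (2 members, 1 with no filter, 6 with the GC and length correction, 4 with only the groups compared) and of siDCAF8+siLSH against siDCAF8 (12, and 3 with the GC and length correction); the cause was not tested. Leaving out single libraries gave 7 to 11 calls for erastin in siNS, 9 to 20 in siDCAF8, 0 in oeWDR76 and 5 to 10 in siDCAF8+siLSH; 26 to 36 and 29 to 38 for siDCAF8 against siNS without and with erastin, 29 to 34 and 32 to 37 for oeWDR76, 23 to 29 and 27 to 34 for siDCAF8+siLSH, and 17 to 28 and 20 to 30 for siDCAF8+siLSH against siDCAF8. For response differences it gave 4 to 8 in siDCAF8 against siNS, 0 to 2 in oeWDR76, 5 to 9 in siDCAF8+siLSH and 6 to 13 in siDCAF8+siLSH against siDCAF8. With the replicate number as a block, erastin called 11 members in siNS, 18 in siDCAF8, 0 in oeWDR76 and 8 in siDCAF8+siLSH; only ATG4C lost its named call under the block (adjusted p = 0.0538). Deviations of same-numbered libraries correlated between -0.208 and 0.389, with 7 of 28 over 0.1. The highest value was between siDCAF8+siLSH and siDCAF8. Because the values varied with the groups compared, they cannot decide whether the numbers pair the libraries of some groups. With 2 libraries per group, a lone library in a leave-one-out fit is assumed to vary like the others.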

Other observations

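Among 11 tested autophagy receptors outside the members, 5 rose and 0 fell with erastin in siDCAF8+siLSH (10.6% of all genes rose), 6 rose and 0 fell in siDCAF8 (18.3%), and 2 rose and 0 fell in siNS (15.1%). CALCOCO2, a receptor for bacteria and mitochondria, averaged 47.7 FPKM in siDCAF8/Erastin, against 35.1 FPKM in siDCAF8, and rose by 0.43. NPC1, which exports cholesterol from the lysosome, averaged 89.7 FPKM in siDCAF8+siLSH/Erastin, against 57.9 FPKM in siDCAF8+siLSH, and rose by 0.63. MCOLN1, a lysosomal calcium channel, fell in siDCAF8 (6.09 FPKM in siDCAF8/Erastin, against 8.17 FPKM in siDCAF8) and in siNS (6.46 FPKM in siNS/Erastin, against 8.74 FPKM in siNS).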
